A study of Mus musculus with 30 samples.

Results

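The carnitine acyltransferases measured here were Cpt1a, Cpt1b, Cpt1c, Cpt2 and Crat, 5 of the 55487 genes in the deposited table of mouse heart RNA counts. Their rows were picked by symbol: each is a row of the table whose Ensembl identifier carries that symbol in the GENCODE mouse annotation. The set itself was chosen with earlier results of these data known. All 5 were found, and all 5 passed the filter on low counts. The series holds 30 hearts, taken 8 weeks after surgery. The operation was either transverse aortic constriction (TAC), in which a clip on the aorta raises the pressure load, or a sham. A first cohort carried floxed Cpt1a alleles. Its 4 groups had 4 hearts each: FF_sham and FF_TAC are labelled as floxed only, and KO_sham and KO_TAC are labelled as knockouts of Cpt1a in the heart. A second cohort of C57Bl/6 mice received saline (PBS_sham and PBS_TAC, 3 hearts each) or an AAV9 vector carrying Cpt1a (AAV_sham and AAV_TAC, 4 hearts each). The series text names the vector AAV9.cTNTN.Cpt1a and calls its expression, and the loss of Cpt1a, specific to the heart. It writes of a knockdown where the genotype label has a knockout. The labels do not give the Cre line, the deleted exons, the ages or the vector dose. Sample titles in KO_TAC carry the words TAC and sham together, and the genotype and treatment labels, which give knockout and TAC, were followed. The study asked what role Cpt1a has in the heart's response to pressure load.

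Long-chain fatty acids cross the mitochondrial membranes as carnitine esters. CPT1 enzymes on the outer membrane transfer the acyl group from coenzyme A to carnitine and are inhibited by malonyl-CoA, a carrier exchanges the ester across the inner membrane, and CPT2 on its inner face returns the acyl group to coenzyme A for beta-oxidation. CPT1A is the form of the liver and most tissues, CPT1B is the form of adult heart and skeletal muscle, and CPT1C is a form of neurons. CRAT, carnitine acetyltransferase, works on acetyl and other short acyl groups in the mitochondrial matrix and buffers acetyl-CoA. Fatty acids are the main fuel of the adult heart.

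The genes lie on 5 chromosomes of GRCm38, the build in the submitters' processing notes and of the GENCODE M21 annotation used here. Cpt1a (ENSMUSG00000024900) is at chr19:3322334-3385733 on the plus strand. The other members are on the minus strand: Cpt1b (ENSMUSG00000078937) at chr15:89416405-89425863, Cpt1c (ENSMUSG00000007783) at chr7:44959372-44974851, Cpt2 (ENSMUSG00000028607) at chr4:107903981-107923610 and Crat (ENSMUSG00000026853) at chr2:30400471-30415813. The annotation limits what the Cpt1b count can hold. Of the 3372 bases in its merged exons, 2744 (81.4%) are also exons, on the same strand, of Gm44502, an entry that joins exons of the upstream gene Chkb to those of Cpt1b. Gm44502 had 0 to 2 counts in every library. Only 628 bases of Cpt1b (18.6%) are its own, and 477 of these lie in introns of the full-length transcript Cpt1b-201. The exon bases that Cpt1b-201 has to itself number 151, in exons 1 and 9. Cpt1b itself had 21 to 218 counts, so reads in shared exons were not counted for both genes. The handling of such reads is not given in the sources used here, and Gm44502 is itself a row of the deposited table. If reads in shared exons were dropped, the Cpt1b values below are too low. They would then rest on the 628 unshared bases, most of them in introns of Cpt1b-201. The Cpt1b values below are those of an uncertain count. Exon 9 is the one coding exon of Cpt1b-201 that Gm44502 lacks (chr15:89422125-89422209, minus strand), and its 85 bases are shown because a read within them belongs to Cpt1b alone.
Cpt1b exon 9: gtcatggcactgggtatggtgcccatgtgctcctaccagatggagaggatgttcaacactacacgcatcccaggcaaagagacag

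**Figure D1:**
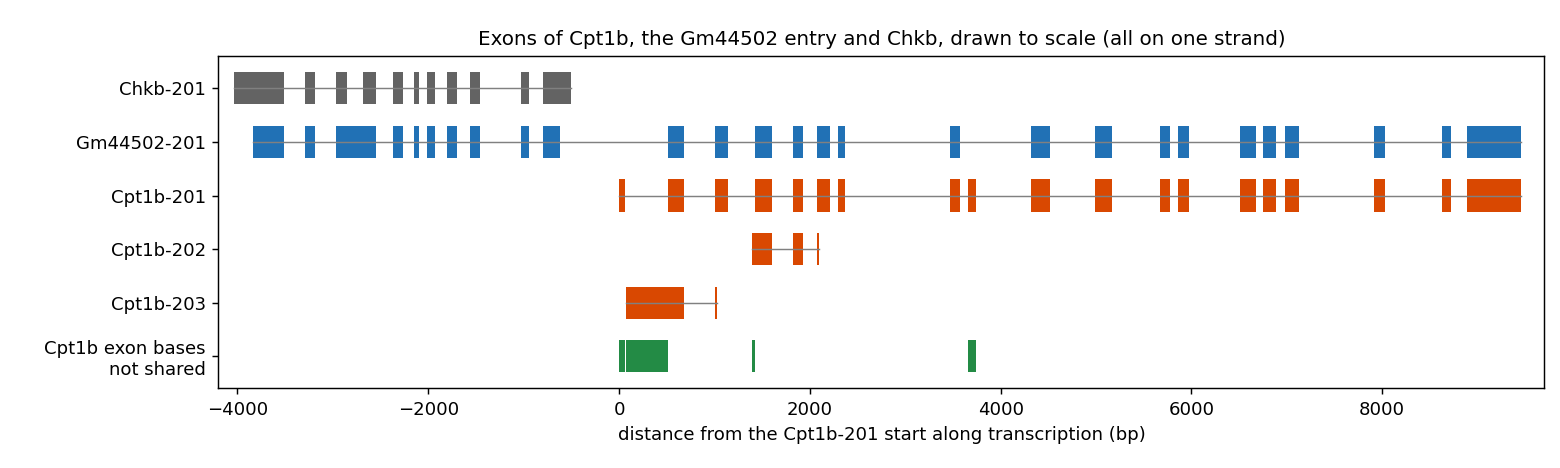
Exons of Chkb, of the Gm44502 entry and of 3 Cpt1b transcripts, against distance in base pairs from the start of Cpt1b-201 along the direction of transcription. Blue exons of Gm44502 cover most orange exons of Cpt1b, and the green blocks, 628 bases in 4 places, are the exon bases that Cpt1b does not share.

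The other members are less exposed to overlap. Cpt1c shares 366 bases (6.53%) with 6530437J22Rik on the opposite strand, which had 0 to 3 counts. Crat shares 59 bases (1.1%) with Dolpp1 and 411 bases (7.63%) with Gm16323, both on the opposite strand, and Gm16323 had 0 counts in all 30 libraries. The library kit marks strand, but the strand setting of the counting is not given in the sources used here. Cpt1a and Cpt2 share no exon bases with another gene.

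The starts of Cpt1a and Cpt2 are shown because transcripts of both were lower in KO_TAC, as set out below. RefSeq (GRCm38.p6) windows of 300 bases around the start, 50 of them after it, were available here for 3 members. They were searched for GGGCGG, the core of the GC box, on both strands, with matches counted without regard to other motifs. The Cpt1a window (chr19:3323051-3323350, plus strand) and the Cpt2 window (chr4:107923540-107923839, minus strand) each held 3 matches, in capitals, and the Cpt1c window held 1. At least 1 match occurred in 35.7% of 32851 such windows, and 3 or more in 10.7%.
Cpt1a: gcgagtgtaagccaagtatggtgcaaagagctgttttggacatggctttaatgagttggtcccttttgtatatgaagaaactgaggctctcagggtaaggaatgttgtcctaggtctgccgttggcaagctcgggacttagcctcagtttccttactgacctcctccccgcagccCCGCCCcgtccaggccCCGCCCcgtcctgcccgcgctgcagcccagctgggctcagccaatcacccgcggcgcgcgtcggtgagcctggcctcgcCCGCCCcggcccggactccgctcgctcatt
Cpt2: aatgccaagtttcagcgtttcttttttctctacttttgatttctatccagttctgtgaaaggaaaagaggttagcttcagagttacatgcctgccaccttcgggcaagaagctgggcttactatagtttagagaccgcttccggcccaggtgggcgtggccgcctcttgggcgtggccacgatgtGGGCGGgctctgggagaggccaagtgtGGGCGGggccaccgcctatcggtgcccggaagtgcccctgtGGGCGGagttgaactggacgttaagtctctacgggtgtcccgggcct

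The series text also names miR370 as a microRNA that acts on Cpt1a in liver, and its overexpression was not analysed here. Its mature sequence is given with the seed in capitals, beside the 2 places in the 4317 bases of the transcript Cpt1a-201 that hold the 7-base seed match (capitals). Both are in the coding sequence, starting at bases 1093 and 2177 of the transcript (chr19:3368877-3368883 and chr19:3381655-3381661). A match of letters is not evidence of binding.
mmu-miR-370-3p: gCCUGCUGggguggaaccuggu
Cpt1a site 1: cacgtcaaggaCAGCAGGcacattgtcgtg
Cpt1a site 2: agactcctcagCAGCAGGtggaactgtttg

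Libraries held 14839758 to 22070373 counts. Summed haemoglobin transcripts, carried by red blood cells, ranged from 1.40 to 51.1 CPM (counts scaled to a fixed library total) in 7 libraries, and the lowest of the other 23 had 293.9 CPM. All 4 KO_TAC libraries were among the 7, with FF_TAC 2, FF_TAC 3 and KO_sham 2. The summed level of 12 early response genes was 1967 to 5585 CPM in KO_TAC, 205 to 4781 CPM in FF_TAC and 237 to 4540 CPM in KO_sham. Along the haemoglobin split, the 7 low libraries had 1967 to 5585 CPM of them and the highest of the other 23 had 1189 CPM. One further library stood apart. PBS_sham 3 had a summed level of 10 cardiomyocyte markers of 27335 CPM, against 51273 to 78435 CPM elsewhere in the series. All 10 markers, which define heart muscle, were detected in every group. The labelled number of a heart only names it, and the p-values measure the spread between hearts.

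Per kilobase of merged exon, Crat and Cpt2 were at similar levels and far above Cpt1a and Cpt1c. Cpt1b is not placed against them, because most of its exon bases are shared with Gm44502. The median over 30 libraries was 83.9 CPM per kilobase for Crat (range 24.5 to 118.1) and 83.8 for Cpt2 (16.9 to 105.5). It was 6.00 CPM per kilobase for Cpt1a (1.48 to 11.4) and 0.78 for Cpt1c (0.53 to 2.32). For Cpt1b it was 2.31 CPM per kilobase (0.45 to 3.75) over all of its exons. Behind these levels were 3252 to 10698 counts per library for Crat, 1118 to 4569 for Cpt2 and 158 to 1754 for Cpt1a, but only 21 to 218 for Cpt1b and 54 to 359 for Cpt1c. The similar levels of Crat and Cpt2 depend on the length used. Crat has 5388 bases of merged exons and 4224 in its longest transcript, and Cpt2 has 2391 and 2372. Which CPT1 form ranked first depended on the length given to Cpt1b. Cpt1a made up a median of 63.1% of the per-kilobase sum of the 3 forms and Cpt1b 25.5% when all merged exons were used, and 30.9% and 64.8% when Cpt1b was divided by its 628 unshared bases. No order of the CPT1 forms is read from these counts.

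**Figure D2:**
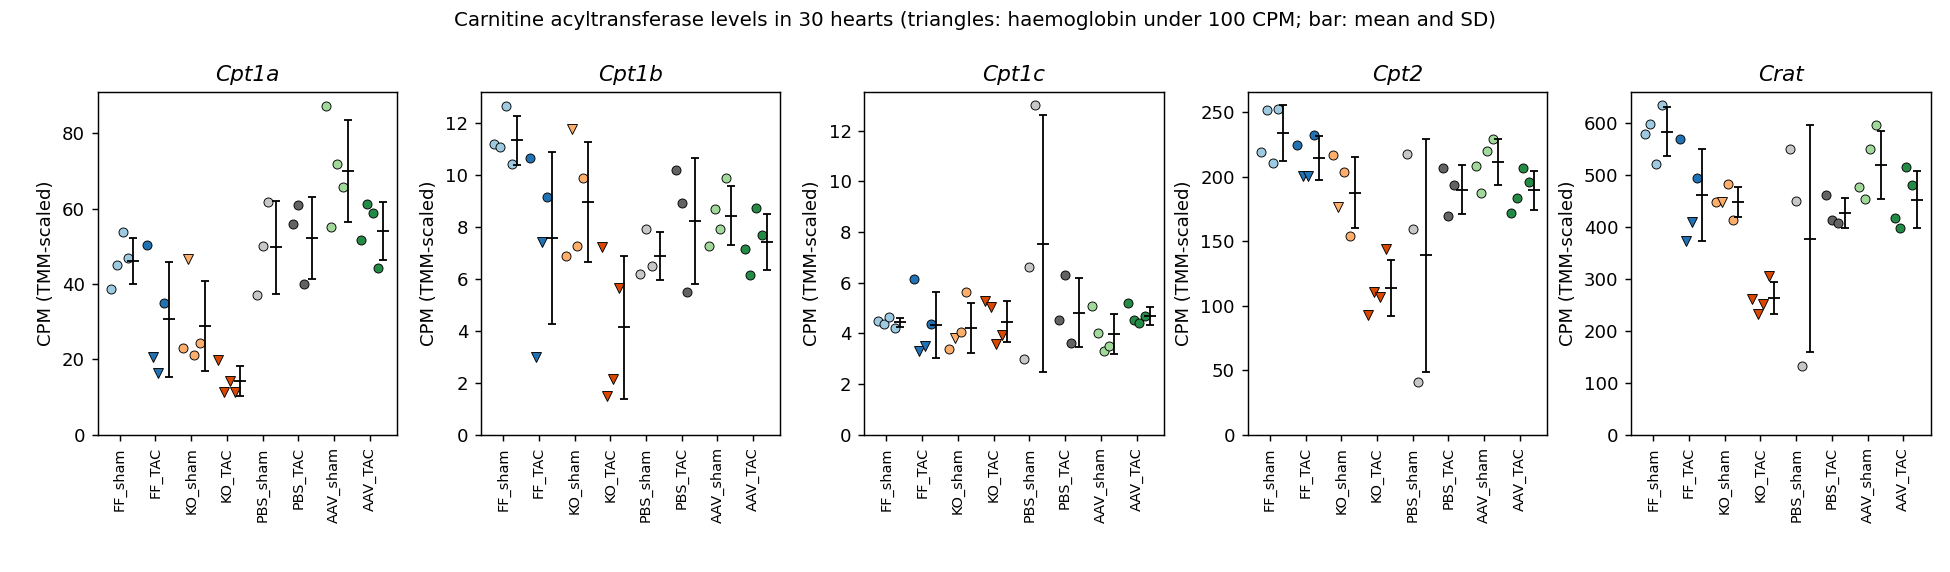
Level of each gene in CPM (TMM-scaled, linear axes from 0), with 1 symbol per heart in 8 groups, triangles for the 7 haemoglobin-low libraries, and the mean and SD of each group beside it. Cpt2 and Crat in KO_TAC lie below every other library of the floxed cohort, and PBS_sham 3 is the single low point of both genes in the other cohort and the high point of Cpt1c.

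Cpt1a, the gene that the study altered, was lowest in KO_TAC. In FF_sham it stood at 38.7, 45.1, 53.7 and 47.0 CPM. In KO_sham the 4 hearts had 23.1, 46.7, 21.1 and 24.4 CPM. KO_sham 2 thus lay within the range of the sham controls, and the other 3 knockout sham hearts lay below it. FF_TAC hearts had 50.3, 20.7, 16.5 and 34.9 CPM, a spread that covered all 4 KO_sham hearts and reached into the KO_TAC range. The 2 lower FF_TAC hearts were the haemoglobin-low pair. KO_TAC hearts had 19.9, 11.3, 14.3 and 11.3 CPM, all below every KO_sham heart. The count covers the whole gene, so reads from exons outside a deletion and from cells that did not recombine would still be in it. Relative to FF_TAC, Cpt1a fell by 1.07 on the log2 scale in KO_TAC (SE 0.33, edgeR adjusted p = 0.0405), or 52.4%. Relative to KO_sham it fell by 0.99 (SE 0.33, edgeR adjusted p = 0.0383), or 49.5%.

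These Cpt1a calls were not robust to single libraries. Against FF_TAC, the call was lost without FF_TAC 1 (−0.73), FF_TAC 4 (−1.01), KO_TAC 2, KO_TAC 3 (−1.07) or KO_TAC 4 (−0.98), the fit without KO_TAC 2 giving a value between the last 2. Against KO_sham, it was lost without KO_sham 2 (−0.65), KO_sham 4 (−1.07), KO_TAC 2 (−0.91), KO_TAC 3 (−0.99) or KO_TAC 4 (−0.89). With a term for low haemoglobin the 2 values were −0.999 and −0.92 (edgeR adjusted p = 0.142 and 0.205). Among the haemoglobin-low hearts alone, the difference between 4 KO_TAC and 2 FF_TAC hearts was −0.39, and between the 4 KO_TAC hearts and KO_sham 2 it was −1.72, neither called. Fitting FF_TAC and KO_TAC alone gave −1.09 and also lost the call (edgeR adjusted p = 0.118). KO_sham against FF_sham gave −0.68 (SE 0.32) and FF_TAC against FF_sham −0.59 (SE 0.32), neither called.

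Cpt1b, the muscle form, had small counts and a wide spread. Its count is uncertain, because 81.4% of its exon bases are shared with Gm44502. Of its 628 unshared bases, 477 lie in introns of the full-length transcript. The values below describe that count and may not follow the full-length transcript. FF_sham hearts had 11.2, 11.1, 12.6 and 10.4 CPM. FF_TAC hearts had 10.7, 3.0, 7.43 and 9.14 CPM, and KO_sham hearts 6.87, 11.8, 7.28 and 9.88 CPM. In KO_TAC the values were 7.24, 1.51, 2.14 and 5.63 CPM, so that 2 hearts lay below all others in the series and KO_TAC 1 lay among the controls. The difference from KO_sham was −1.08 (SE 0.42, edgeR adjusted p = 0.0673) and from FF_TAC −0.84 (SE 0.42, edgeR adjusted p = 0.184). The former passed the threshold with DESeq2 (adjusted p = 0.0383), and both did without KO_TAC 1 (−1.49 and −1.26). In the AAV9 cohort Cpt1b ranged from 5.51 to 10.2 CPM over 14 hearts, and the 4 groups overlapped.

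Cpt1c, the neuronal form, had similar levels in 7 of the 8 groups. Its means ran from 3.97 to 4.82 CPM there. PBS_sham was the exception, with hearts at 2.99, 6.61 and 13.0 CPM, the last in PBS_sham 3. Summed levels of 7 neuron and Schwann cell markers were 16.6 to 33.7 CPM in PBS_sham and 5.24 to 55.4 CPM over the other groups. Cpt1c was not called in any of the 12 comparisons of this report. KO_TAC differed from FF_TAC by 0.08 (SE 0.22), an interval of −0.35 to 0.51 at 2 SE, and from KO_sham by 0.13 (SE 0.22).

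Cpt2, which regenerates acyl-CoA inside the mitochondrion, did not overlap between KO_TAC and the rest of the floxed cohort. In FF_sham it stood at 219, 252, 211 and 252 CPM. FF_TAC hearts had 225, 200.4, 200.2 and 233 CPM and overlapped the sham controls, and KO_sham hearts had 216, 177, 203 and 154 CPM. KO_TAC hearts had 92.7, 111, 107 and 144 CPM, so the highest of them lay below the lowest of the other 12 floxed-cohort hearts. Relative to FF_TAC, Cpt2 fell by 0.88 on the log2 scale (SE 0.14, edgeR adjusted p = 0.0014), or 45.8%. Relative to KO_sham it fell by 0.69 (SE 0.14, edgeR adjusted p = 0.0041), or 37.8%. Both calls were kept when any 1 library was left out, with ranges of −1.02 to −0.80 and −0.82 to −0.60.

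Crat, the short-chain enzyme, had the same order of groups within the floxed cohort. FF_sham hearts had 580.1, 599, 522 and 636 CPM. FF_TAC hearts had 569.8, 373, 410.2 and 494 CPM, and the 2 lower ones were the haemoglobin-low pair. KO_sham hearts were close together at 448, 449, 483 and 414 CPM, all below FF_sham. KO_TAC hearts had 262, 233, 253 and 305 CPM and did not overlap any other group of the floxed cohort. Relative to FF_TAC, Crat fell by 0.78 (SE 0.12, edgeR adjusted p = 0.0016), or 41.7%, and relative to KO_sham by 0.73 (SE 0.12, edgeR adjusted p = 0.0020), or 39.8%. Leaving out any 1 library kept both calls, with ranges of −0.87 to −0.67 and −0.81 to −0.70.

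In all, 3 of 5 members (Cpt1a, Cpt2 and Crat) were called lower in KO_TAC than in FF_TAC, and 0 higher. In this comparison 14.3% of the 15596 genes tested were called, and 6.8% were called lower. The hearts of the 2 groups did not overlap for Cpt2 and Crat, against 7.4% of genes that were lower without overlap. Against KO_sham, the same 3 genes were called lower, where 25.8% of genes were called and 11.5% were called lower. All 3 were without overlap there, against 13.2% of genes. The median difference of the 5 members was −0.84 from FF_TAC and −0.73 from KO_sham, and that of all genes tested 0.04 and 0.02. KO_TAC stands on one side of both comparisons, so they share its 4 hearts.

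KO_TAC also lay wholly on the low side of the haemoglobin split, and the measurements within that split differ between the genes. With a term for it, the difference from FF_TAC was −0.81 for Cpt2 and −0.65 for Crat (edgeR adjusted p = 0.0082 and 0.0101), both still called. The difference from KO_sham was −0.58 and −0.57 (edgeR adjusted p = 0.0887 and 0.0553), and no member was called, while 273 genes were. Within the haemoglobin-low libraries alone, with 4 hearts against 2, KO_TAC differed from FF_TAC by −0.82 in Cpt2 and −0.57 in Crat. Against the single haemoglobin-low KO_sham heart, which is assumed to vary as the others do, the values were −0.63 and −0.77. The fits within the split called 0 members, and 0 and 1 genes overall. Other properties that travel with the split were not tested.

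**Figure D3:**
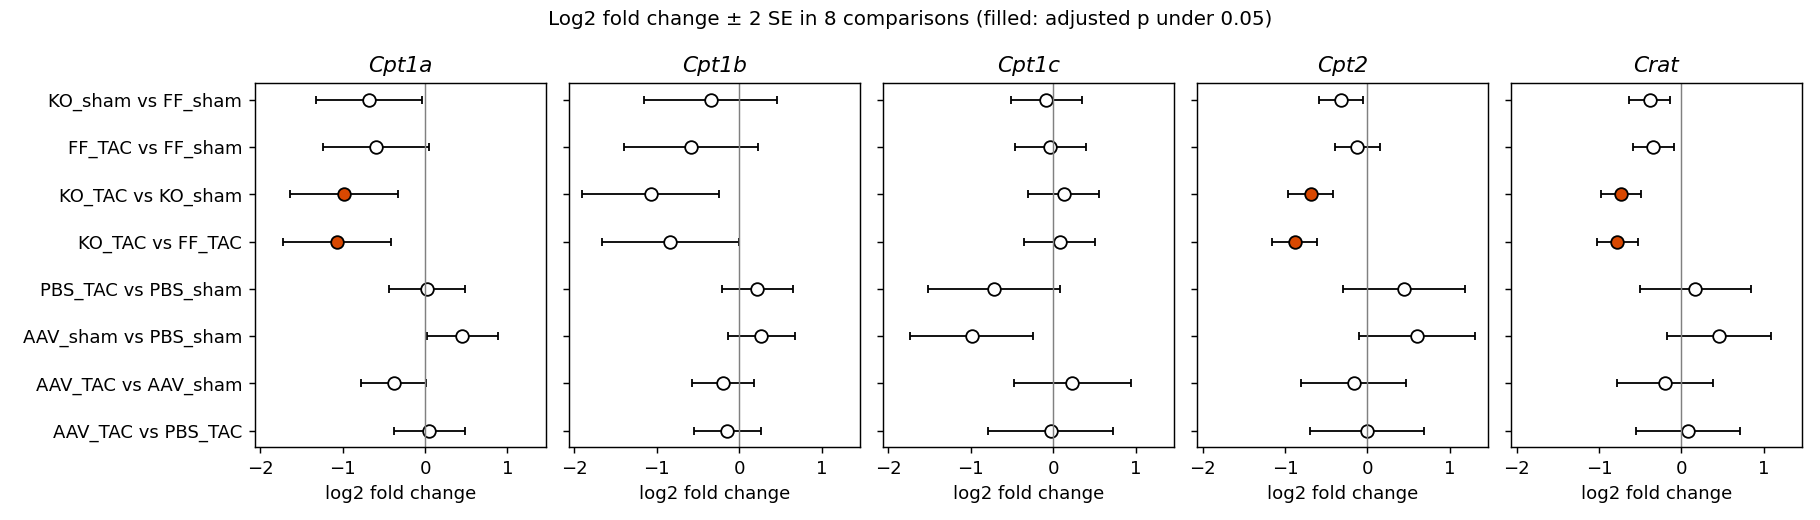
Log2 fold change (points) with 2 standard errors on each side (bars) for each gene in 8 comparisons between pairs of groups, filled where the edgeR adjusted p is under 0.05. The filled points are Cpt1a, Cpt2 and Crat in the 2 comparisons of KO_TAC, between −1.07 and −0.69.

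Without pressure load the same genes differed less. In KO_sham against FF_sham all 5 members were below 0, with values of −0.68 for Cpt1a, −0.34 for Cpt1b, −0.08 for Cpt1c, −0.32 for Cpt2 and −0.39 for Crat. No member was called, as was no gene (0.0% of those tested). By edgeR 2 members and 814 of all genes had an unadjusted p under 0.05, and DESeq2 called 0 members. Crat was the member without overlap between these groups, and 3.21% of genes were lower without overlap. TAC in the floxed controls gave differences of −0.58 for Cpt1b, −0.12 for Cpt2 and −0.34 for Crat. There, 0 members were called by edgeR or DESeq2, 0.0% of genes were called, and edgeR had 1 member and 1733 genes at an unadjusted p under 0.05. All 5 members overlapped between these groups, and 3.15% of genes were lower without overlap. The interaction, which asks whether the change with TAC differed between knockout and control, was −0.56 for Cpt2 (SE 0.19, edgeR adjusted p = 0.222) and −0.39 for Crat (SE 0.17, edgeR adjusted p = 0.351). It was called for 0 members by either tool and for 0.0449% of genes by edgeR. A larger fall with TAC in the knockout than in the control was thus not shown for any member. Averaged over both kinds of surgery, the knockout groups were lower in Cpt1a (−0.88, SE 0.23), Cpt2 (−0.60, SE 0.10) and Crat (−0.58, SE 0.09), with edgeR adjusted p = 0.0275, 0.0033 and 0.0024. In that average 9.07% of genes were called, and 4.34% were called lower. The Cpt1a call in it was lost with the haemoglobin term (−0.82) and without any 1 of FF_sham 3, FF_sham 4, FF_TAC 1, FF_TAC 4, KO_sham 1, KO_sham 3, KO_sham 4 or KO_TAC 3 (−0.88 to −0.71), and the calls of the other 2 were kept.

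The vector carrying Cpt1a came with no called change of any member. PBS_sham hearts had 37.1, 50.1 and 61.8 CPM of Cpt1a, and AAV_sham hearts 87.2, 55.0, 71.7 and 65.8 CPM. In PBS_TAC the values were 55.9, 60.8 and 39.9 CPM, and in AAV_TAC 51.6, 61.3, 58.7 and 44.2 CPM. AAV_sham reached the highest levels but its lowest heart lay inside the PBS_sham range, and the TAC groups overlapped throughout. The difference between AAV_sham and PBS_sham was 0.45 (SE 0.22, edgeR adjusted p = 0.248), and without PBS_sham 3 it was 0.69. AAV_TAC against PBS_TAC gave 0.05, with 2 SE reaching from −0.38 to 0.48. Whether reads of the transgene count towards Cpt1a is not given in the sources used here.

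For Cpt2 and Crat the sham comparison rested on PBS_sham 3. Its Cpt2 level was 40.5 CPM beside 218 and 159 in the other 2 PBS_sham hearts, and its Crat level was 132 CPM beside 551 and 451. AAV_sham hearts had 209, 187, 220.0 and 229 CPM of Cpt2 and 477, 453, 549.9 and 596 CPM of Crat. AAV_sham exceeded PBS_sham by 0.60 in Cpt2 and 0.46 in Crat, and by 0.18 and 0.06 without that library. Cpt1c was −0.99 in the same comparison and −0.26 without it. Without PBS_sham 1, which leaves PBS_sham 3 as 1 of 2, Cpt1c was −1.36 and passed the threshold (edgeR adjusted p = 0.0142). PBS_TAC against PBS_sham gave 0.44 for Cpt2, 0.17 for Crat and −0.72 for Cpt1c. Without PBS_sham 3 those values were 0.02, −0.22 and 0.01, and without PBS_sham 1 Cpt1c was −1.10 (edgeR adjusted p = 0.0406).

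Under TAC the saline and vector groups overlapped for every member. PBS_TAC hearts had 207, 169 and 194 CPM of Cpt2 and AAV_TAC hearts 172, 183, 207 and 196 CPM. Crat stood at 461, 413 and 409 CPM in PBS_TAC and at 417, 399, 516 and 480.3 CPM in AAV_TAC. Their differences were −0.003 for Cpt2 (2 SE from −0.69 to 0.69) and 0.08 for Crat (2 SE from −0.55 to 0.71). AAV_TAC against AAV_sham gave −0.38 for Cpt1a (SE 0.20, edgeR adjusted p = 0.765), −0.16 for Cpt2 and −0.20 for Crat. By edgeR and by DESeq2, 0 members were called in each of these 4 comparisons, in the interaction and in the average effect of TAC. At an unadjusted p under 0.05, edgeR had 1 member (Cpt1c) in AAV_sham against PBS_sham, and 0 in the others. All genes at that threshold numbered 3262 of 15745 in that comparison and 502 to 2908 in the others. The share of genes called after adjustment was 0.0127% in AAV_sham against PBS_sham, 0.0381% in AAV_TAC against PBS_TAC, 0.0318% in PBS_TAC against PBS_sham, 0.00635% in AAV_TAC against AAV_sham and in the interaction, and 0.908% in the average.

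Set in order of group means, neighbours overlapped in range for every member with a single exception. Cpt1a ran from AAV_sham (69.9 ± 13.4 CPM, SD, n = 4) through AAV_TAC, PBS_TAC, PBS_sham, FF_sham, FF_TAC and KO_sham (28.8 ± 12.0 CPM, SD, n = 4) to KO_TAC (14.2 ± 4.02 CPM, SD, n = 4). The step from KO_sham to KO_TAC was the one without overlap. Cpt2 and Crat both began with FF_sham (234 ± 21.7 and 584 ± 47.8 CPM, SD, n = 4) and ended with PBS_sham and KO_TAC (114 ± 21.7 and 263 ± 30.3 CPM, SD, n = 4). Cohort and strain cannot be told apart in steps between the cohorts.

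Cpt2 and Crat levels were correlated over the libraries. After each cohort's mean log2 CPM was subtracted, their Pearson correlation was 0.95 over 30 libraries and Spearman's 0.90, with 0.93 among the 16 floxed-cohort hearts and 0.98 among the 14 of the AAV9 cohort. Without PBS_sham 3 the last was 0.79. These points share their groups and library scaling, and the values describe the libraries. Differences between groups were not subtracted, so covariation between hearts within a group was not measured. Cpt1a and Crat correlated at 0.85 in the floxed cohort and at −0.07 in the other, or 0.15 without PBS_sham 3. Cpt1a and Cpt1b correlated at 0.75 over all libraries, 0.79 in the floxed and 0.38 in the AAV9 cohort. Cpt1c ran against Cpt2, at −0.66 over 30 libraries, −0.16 among floxed-cohort hearts and, without PBS_sham 3, −0.81 in the AAV9 cohort.

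**Figure D4:**
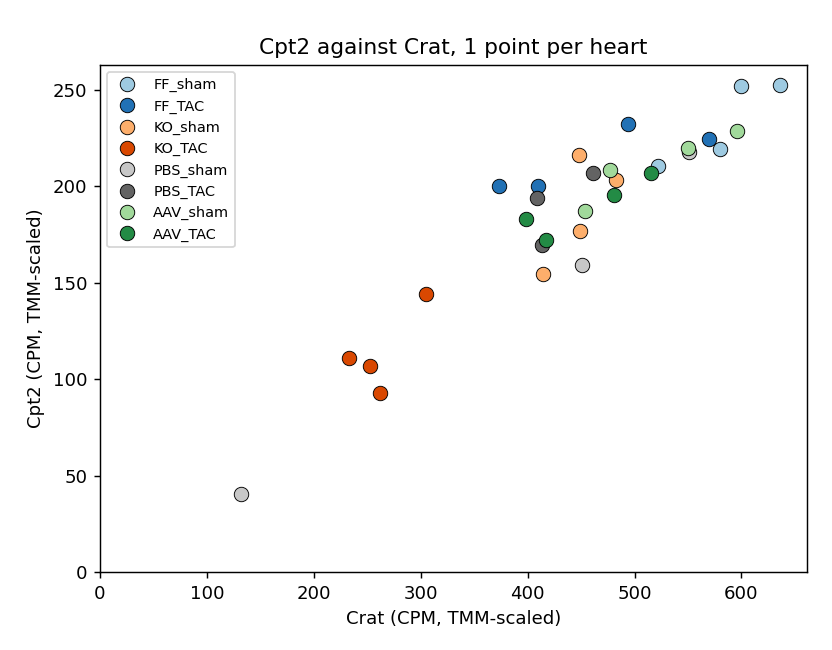
Cpt2 against Crat in CPM (TMM-scaled, linear axes from 0), with 1 point per heart coloured by group. The points follow a single band, with PBS_sham 3 and the 4 KO_TAC hearts at its lower end, all at or below 305 CPM of Crat.

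The genes most like each member were taken from 10320 or 10321 genes whose mean reached 5 CPM in each cohort, by the same correlation over 30 libraries. For Cpt2 they were Hadh (0.98), Stard7 (0.98) and Etfdh (0.97). For Crat they were Galm (0.98), Acsl1 (0.98) and Ank (0.97). Leng8 (0.96), Numa1 (0.96) and Gm9821 (0.95) came first for Cpt1b, each closer to it than any other member was. Likeness was weaker for Cpt1a, led by Fam13c (0.85), Bcl7a (0.85) and Tnrc18 (0.84), and for Cpt1c, led by Ttc28 (0.81), Sfswap (0.80) and E4f1 (0.80). In the same order, the Cpt1a values were 0.88, 0.90 and 0.88 in the floxed cohort and 0.64, 0.39 and 0.62 in the AAV9 cohort. Among the genes named for the other members, the lowest value in the AAV9 cohort was 0.77, of Gm9821 with Cpt1b.

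The steps around the carnitine shuttle were read from 6 lists of genes, mainly in the 2 comparisons of KO_TAC. These lists were chosen with earlier results of the data known. The lists' counts stand beside 14.3% of all genes called and 6.8% called lower against FF_TAC, and 25.8% called and 11.5% called lower against KO_sham. Of the 8 tested genes for carnitine supply and transfer, 4 were lower and 1 higher in KO_TAC than in FF_TAC, and 3 were lower and 1 higher than in KO_sham. Slc25a20, the carnitine-acylcarnitine carrier between the steps of CPT1 and CPT2, fell by 0.63 (SE 0.16, edgeR adjusted p = 0.0171) and by 0.51 (SE 0.16, edgeR adjusted p = 0.0297). Its mean was 129 ± 29.9 CPM in KO_TAC, 205 ± 5.59 in FF_TAC and 190.2 ± 33.1 in KO_sham (SD, n = 4). Aldh9a1, an aldehyde dehydrogenase of carnitine synthesis, fell by 0.78 and 0.89, and Slc22a5, the main carnitine importer, fell by 0.73 against KO_sham. The remaining calls lower than FF_TAC, named after their values were seen, were Slc22a5 (−0.79) and the carrier gene Slc25a29 (−0.69). The single riser in each comparison, named after its values were seen, was Slc22a4, a related transporter (0.85 and 1.30), whose hearts overlapped between groups. Crot, the acyltransferase of peroxisomes, is given outside the naming rule as a relative of the members. It was −0.16 and −0.26 and was not called.

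Genes that deliver acyl-CoA moved in both directions. Of 10 genes, 3 were called lower and 2 higher against FF_TAC, and 4 lower and 1 higher against KO_sham. Acsl1, the main long-chain acyl-CoA synthetase of heart, fell by 1.07 (SE 0.16, edgeR adjusted p = 0.0011) and by 0.96 (SE 0.16, edgeR adjusted p = 0.0019). Cd36, the fatty acid translocase, fell by 0.63 and 0.62, and Acsl6, a further synthetase, fell by 1.02 against FF_TAC. Acsl5, also a synthetase, rose by 0.53 against KO_sham. The risers against FF_TAC, named after their values were seen, were Acsl5 (0.36) and Acsl4 (0.47), a synthetase that favours arachidonate. In the list that controls malonyl-CoA, the inhibitor of CPT1, 2 of 10 were lower and 1 higher against FF_TAC, and 3 lower and 1 higher against KO_sham. Acacb, the acetyl-CoA carboxylase that makes malonyl-CoA at the mitochondrion, fell by 0.92 and 0.75. Mlycd, the decarboxylase that breaks it down, fell by 0.57 and 0.44. Of the subunits of AMP-activated kinase, Prkag2 rose by 0.88 against FF_TAC and Prkab2 by 1.14 against KO_sham. Prkaa1, a catalytic subunit named after its value was seen, fell by 0.31 against KO_sham. The Prkag2 call was lost with the haemoglobin term (0.91) and without FF_TAC 1 (0.87), FF_TAC 4 (0.90) or KO_TAC 3 (0.80).

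Downstream, 11 of 15 beta-oxidation enzymes were called lower against FF_TAC and 8 against KO_sham, with 0 higher in both. The median of the list was −0.61 and −0.47, beside 0.04 and 0.02 for all genes tested. Hadh, a dehydrogenase of the spiral, fell by 0.95 (SE 0.10) and 0.84 (SE 0.10). Acaa2, its last enzyme, fell by 0.90 and 0.997. Etfdh, which passes electrons on to ubiquinone, fell by 0.78 against FF_TAC, and Acadvl, the very-long-chain dehydrogenase, by 0.71 against KO_sham. In the list of PPAR and PGC-1 regulators, 5 and 4 of 12 genes were called lower, with 0 higher. The list holds nuclear receptors, their coactivators and the corepressor gene Ncor1. Ppara fell by 1.23 (SE 0.22) and 1.33 (SE 0.22), Rxrg by 0.68 and 0.53, and Esrrg by 0.59 and 0.57. Of 11 PPAR target genes 3 were lower in each comparison and 0 higher: Acot2 fell by 0.99 and 0.79, Vldlr by 0.59 and 0.41, and Acot1 by 2.20 against KO_sham. Acot1 and Acot2 are near-identical neighbours whose reads the counting could have split.

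**Figure D5:**
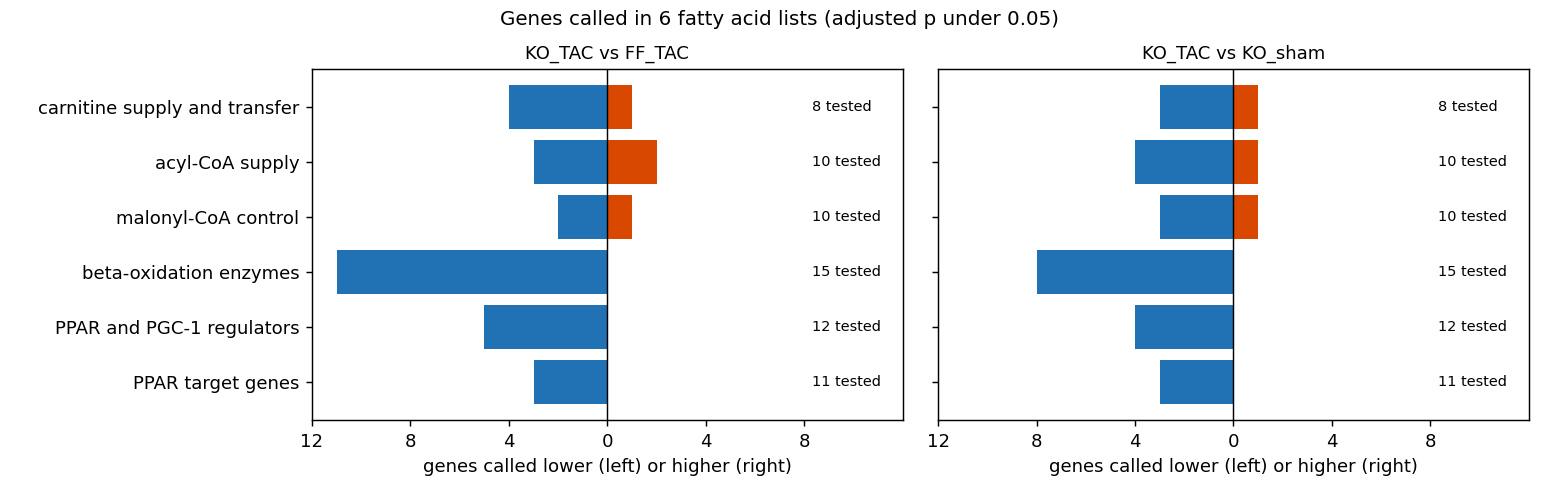
Number of genes called lower (blue, left of 0) and higher (orange, right of 0) in 6 lists around the carnitine shuttle, for KO_TAC against FF_TAC and against KO_sham. The beta-oxidation bars are the longest, 11 and 8 of 15, and no gene of the 3 lowest lists was called higher.

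With the haemoglobin term, the counts called lower against FF_TAC were 1 of 8 for carnitine supply, 3 of 10 for acyl-CoA supply, 3 of 10 for malonyl-CoA control, 9 of 15 for beta-oxidation, 4 of 12 for regulators and 2 of 11 for PPAR targets, with 0 higher. Over all 15596 genes, 1127 were called in either direction in that fit against FF_TAC and 273 against KO_sham. The number called lower over all genes is not given here for fits with this term. Against KO_sham the lists' counts called lower were 1, 1, 0, 3, 1 and 0 in the same order, again with 0 higher. The medians for beta-oxidation were −0.55 and −0.44. Within the haemoglobin-low libraries none of the 6 lists held a called gene, and 15 and 14 of the 15 beta-oxidation enzymes were below 0. In the average over both kinds of surgery, the 6 lists in that order had 4, 3, 2, 11, 3 and 3 genes called lower and 0 higher, beside 4.34% of all genes called lower. With the haemoglobin term they had 0, 2, 3, 7, 1 and 2 called lower, where 534 genes were called in either direction. By edgeR, 0 genes of these lists were called in KO_sham against FF_sham, in FF_TAC against FF_sham and in all comparisons of the AAV9 cohort.

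Other cells of the heart were measured by markers beside the members. In bulk tissue, fewer cells of a type and less RNA per cell cannot be told apart. The cardiomyocyte sum was 51273 to 78435 CPM in KO_TAC, 65613 to 75586 CPM in FF_TAC and 59946 to 65302 CPM in KO_sham, so the groups overlapped. Of its 10 markers, 2 were called lower and 0 higher against FF_TAC, and 2 lower and 2 higher against KO_sham. Ttn fell by 0.35 against FF_TAC, and Myh7 rose by 2.51 and Ryr2 fell by 0.53 against KO_sham. The cardiomyocyte sum thus joins markers that moved in opposite directions. Per 10000 CPM of that sum, Cpt2 was at 14.1 to 25.0 CPM in KO_TAC, below 26.5 to 35.4 CPM in FF_TAC and overlapping 24.5 to 36.1 CPM in KO_sham. Crat on the same scale was at 29.7 to 53.1 CPM in KO_TAC, overlapping 49.3 to 85.2 CPM in FF_TAC and below 65.6 to 74.8 CPM in KO_sham. The fibroblast sum of 7 markers was 2002 to 2344 CPM in KO_TAC and at most 1882 CPM in the other floxed groups. The endothelial sum of 6 markers was 448 to 649 CPM in KO_TAC and at least 671 CPM in those groups, and the atrial sum of 4 markers was 4578 to 17453 CPM against 16.5 to 5386 CPM. The atrial markers differed among themselves: Nppa, also a gene of the stressed ventricle, was the one called (4.73 and 3.66), while Myl7, named after its values were seen, was at 3188 CPM in KO_TAC 1 and at 0.12 to 0.72 CPM in the other 3 KO_TAC hearts. Macrophage markers summed to 239 to 306 CPM in KO_TAC, above 170 to 191 CPM in FF_TAC and within 203 to 363 CPM in KO_sham. Of the 6, 3 were called higher against FF_TAC, 0 against KO_sham by edgeR and 5 in the knockout average. Of the 4 neuron and Schwann cell markers tested, 1 was called, the tubulin gene Tubb3, which rose by 3.21 and 2.95. The median of the 4 was 0.72 against FF_TAC and 0.06 against KO_sham, with 1 and 2 below 0. Of the fibroblast markers 3 of 7 were called higher in each comparison of KO_TAC, and of the endothelial markers 3 and 4 of 6 were called lower. Of all genes tested, 14.3% were called and 6.8% called lower against FF_TAC, and 25.8% and 11.5% against KO_sham. The knockout average had 9.07% called. The part of the marker shifts in the members' differences was not tested.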

How the data were processed

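RNA from 30 mouse hearts was sequenced by the authors as poly(A)-selected, strand-marking libraries with paired ends, per the labels' protocols. The deposited table holds raw counts of reads per Ensembl gene. HISAT2 2.1.0 and featureCounts from Subread 1.5.1 with GRCm38 are named in the submitters' processing notes, and the annotation release and strand setting are not given in the sources used here. Symbols were found for 55141 of 55487 identifiers in GENCODE M21. The table has 0 columns of other samples.

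The 2 cohorts were fitted separately in edgeR 4.0.16 (R 4.3.3): filterByExpr (15596 genes kept in the floxed and 15745 in the AAV9 cohort), TMM scaling, a quasi-likelihood F test with 1 coefficient per group, and Benjamini-Hochberg adjustment over all genes kept, called at 0.05. The SE is the log2 fold change divided by the square root of F. A haemoglobin term splits libraries at 100 CPM. Levels are CPM scaled by TMM over all 30 libraries, divided by merged exon length where given per kilobase. Depth was 14839758 to 22070373 counts per library, and the SE of a gene reflects both its counts and its spread between hearts. DESeq2 1.42.0 and other settings were alternatives, and the edgeR test was run on simulated counts. Genes named from each list were the 3 with the smallest adjusted p among those called without overlap between the groups, and other names are marked in the text. The genes and lists were chosen with earlier results of these data known.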

Additional observations from a re-analysis of the deposited data

Results flagged for a closer look

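Cpt1a in KO_sham stood out among 30 tests for a single distant heart, 5 genes in each of the 6 groups of 4 hearts. Chance marks about 1 in 20 such tests. The KO_sham 2 heart had 46.7 CPM, and the next had 24.4 CPM. Its gap to the nearest other heart was 0.868 of the range of the group, past Dixon's critical value. This library was also the haemoglobin-low member of its group, with a summed early response level of 4540 CPM, and it had the highest Cpt1b of the group at 11.8 CPM. Their part in its Cpt1a level was not tested.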

How the results depend on the processing

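For the 5 members, 418 of 450 log2 fold changes under other settings kept their direction and their side of the threshold, as did 537 of 600 with 1 library left out. The number of members called fell from 3 to 0 among haemoglobin-low libraries alone (both KO_TAC comparisons, with fewer hearts) and with the haemoglobin term against KO_sham, where the cause was not tested. Leaving out 1 library gave 2 to 4 members called in both KO_TAC comparisons, 2 to 3 in the knockout average, and 0 to 1 in AAV_sham and in PBS_TAC against PBS_sham. Haemoglobin-high libraries alone could not be used for comparisons with KO_TAC, which has none. Same-numbered hearts did not vary together on average. The mean correlation of their pairs was −0.0091 in the floxed cohort and −0.0099 in the other, beside 0.010 and 0.0059 for differently numbered pairs. Of the same-numbered pairs, 10 of 24 and 7 of 19 correlated over 0.1. With a replicate block, 2 members and 2123 genes were called against FF_TAC, where Cpt1a was −1.04 (edgeR adjusted p = 0.062), and 3 members and 3889 genes against KO_sham. Those 3 were Cpt2, Crat and Cpt1b (−1.24, edgeR adjusted p = 0.0487), and Cpt1a was no longer called (−0.99, edgeR adjusted p = 0.0519).

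The other reversals concern values near 0, and their cause was not tested. Cpt1c became 0.020 in KO_sham against FF_sham and 0.17 in the knockout average with the haemoglobin term, and 0.0029 in that average with the replicate block. In FF_TAC against FF_sham it became 0.032 with Myl7, 0.15 with the haemoglobin term and 0.24 in haemoglobin-high libraries. In AAV_TAC against PBS_TAC, Cpt1c became 0.0040 with the replicate block and 0.024 with Myl7, and Cpt2 became 0.0010 with RLE, 0.0014 with DESeq2, 0.0017 without the filter and 0.0039 in a fit of all 30 libraries. Cpt1a in PBS_TAC against PBS_sham became −0.013 in that fit and −0.014 in the 2 groups alone, and Crat in the TAC average became 0.011 with the replicate block.

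Leaving out 1 library, Cpt1c ran from −0.25 to 0.012 in KO_sham against FF_sham, −0.036 to 0.29 in KO_TAC against FF_TAC, −0.25 to 0.080 in FF_TAC against FF_sham and −0.092 to 0.099 in the knockout average. In AAV_TAC against PBS_TAC, Cpt1a ran from −0.11 to 0.17, Cpt1b from −0.37 to 0.048, Cpt1c from −0.20 to 0.21 and Cpt2 from −0.081 to 0.069. In PBS_TAC against PBS_sham, Cpt1a ran from −0.15 to 0.26, Cpt1c from −1.10 to 0.0074 and Crat from −0.22 to 0.53. Crat ran from −0.74 to 0.018 in the interaction of vector and TAC. In the TAC average, Cpt1b ran from −0.076 to 0.13, Cpt1c from −0.43 to 0.12, Cpt2 from −0.073 to 0.37 and Crat from −0.21 to 0.17.

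Without TMM, Cpt1b in PBS_sham was 8.12 CPM. With the unshared length, an alternative chosen after seeing the data like those with Myl7 and haemoglobin-low libraries, the CPT1 shares were 30.9% for Cpt1a and 64.8% for Cpt1b. Low counts limit Cpt1b and Cpt1c.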
